A study of Mus musculus with 8 samples.

Results

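The cell cycle and proliferation genes are a set of 39 named genes that covers the cyclins and their kinases, the inhibitors of those kinases, the proteins that license and copy DNA, and the machinery of mitosis. Each gene was read on a probe set that the array annotation assigns to that symbol alone, and where there were several, on the set with the highest mean over the 8 arrays. In this way 37 of the 39 genes were measured, out of 19939 genes tested in all. Cdkn1a lay only on a probe set that also carries another symbol, and Ccnb1 had no probe set named here.

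The arrays held RNA from livers of male littermates aged 8 weeks, in 2 groups of 4. In the first group Hmgb1, the gene of an abundant DNA-bending protein of chromatin, was deleted with Albumin-Cre, a recombinase whose promoter is active in hepatocytes. Whether other liver cells lost Hmgb1 as well was not tested. The second group carried floxed Hmgb1 and served as the control. Cre appears in the titles of that first group alone, so the effect of Cre and the effect of the deletion cannot be told apart. The protocol gives whole liver on a C57Bl/6 background after 5 backcrosses, whereas the characteristics give stellate cells and Balb/c for the same arrays. The hepatocyte product Alb had log2 intensities between 13.26 and 14.03, and Lrat, which marks stellate cells, between 7.82 and 8.87. No label states whether the arrays come from separate mice, and the p-values then cover only the spread among the arrays, which may be technical.

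A cell enters the cycle when D cyclins with CDK4, then E cyclins with CDK2, release E2F transcription factors, which switch on the genes of DNA replication. MCM proteins are loaded onto origins with the help of CDC6 and CDT1, and CDK1 with cyclins A and B later drives mitosis. Most hepatocytes of adult liver are at rest outside the cycle and can re-enter it after injury or loss of tissue. CKS1B is a small protein that binds CDKs and helps the ubiquitin ligase subunit SKP2 to recognise the CDK inhibitor p27, which Cdkn1b encodes.

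Only Cks1b passed the threshold among these genes, and it rose in the deleted livers by 0.51 on the log2 scale (SE 0.087, limma adjusted p = 0.0275), or 1.43-fold. That is 1 of 37 genes called, or 2.70%, where 138 of all 19939 genes, or 0.692%, were called, 0.296% as higher and 0.396% as lower. The set was chosen with earlier results of these data known, so its share with Cks1b cannot be read as enrichment. Of the 36 genes other than Cks1b 0 were called. That background count of 138 (59 higher, 79 lower) ran from 37 without deleted 4 to 321 without control 1, and its split was 153 higher and 111 lower after a further quantile normalization and 33 and 28 when arrays were centred on their medians. The list as a whole was centred near 0, with a median log2 fold change of 0.020 against 0 over all genes tested. Of the 37 genes 20 were on the higher and 17 on the lower side. The 95% interval of the fold change lay within 1.5-fold in either direction for 35 of 37 genes, all except Cks1b and the CDK inhibitor gene Cdkn2c. The protocol gives whole liver, and in whole tissue fewer cells of a type and less RNA per cell cannot be told apart.

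**Figure D1:**
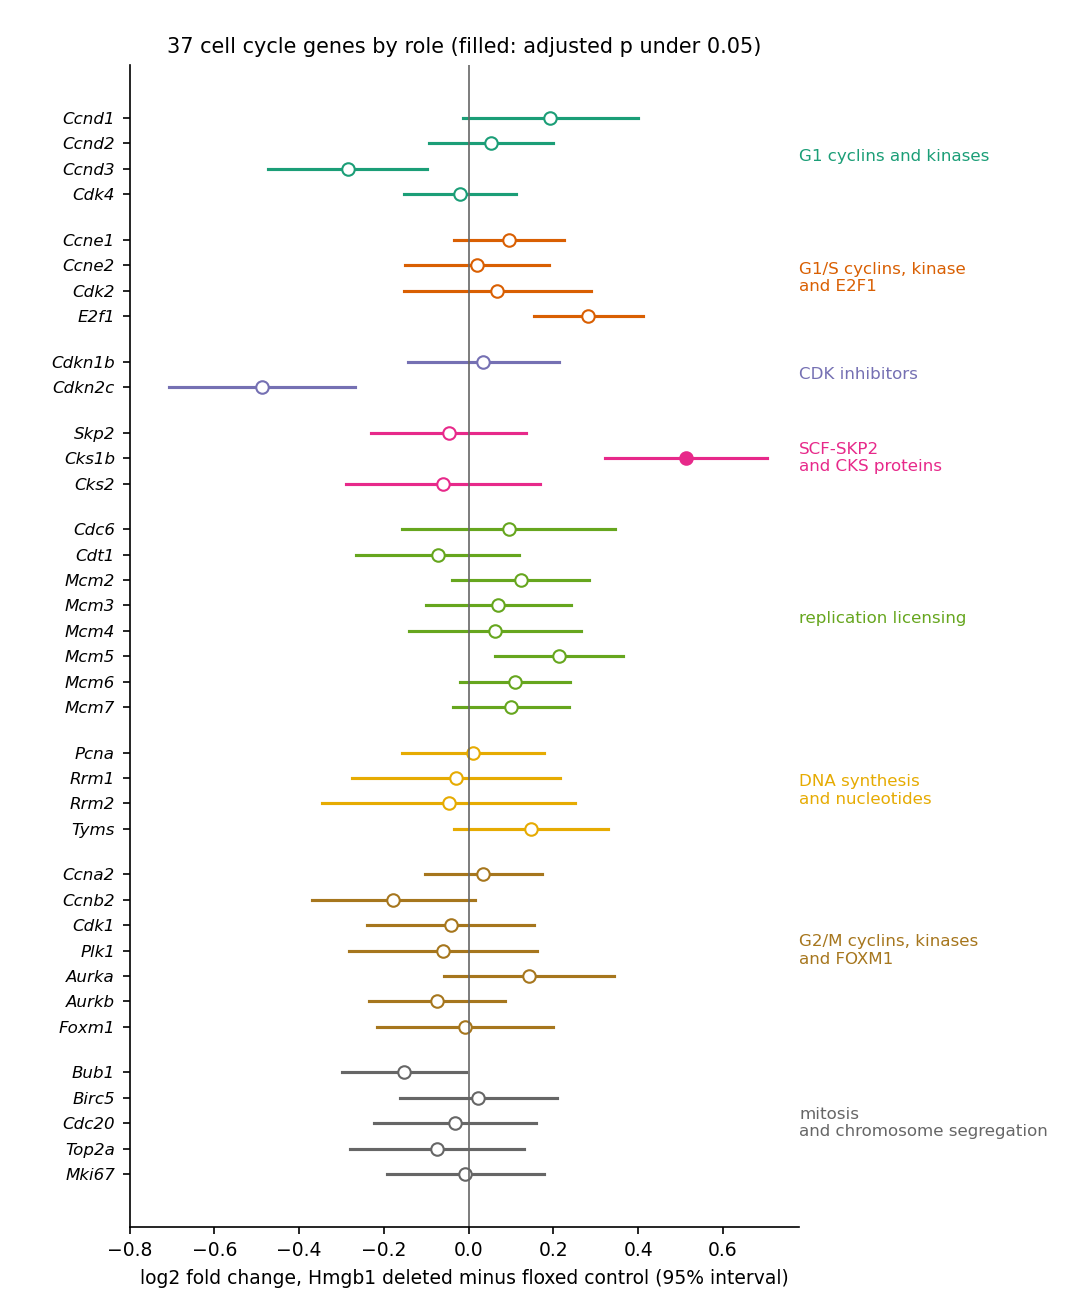
Log2 fold changes (Hmgb1 deleted minus floxed control, 4 arrays each) of the 37 measured genes on the horizontal axis, with 95% intervals of the moderated fit, grouped and coloured by role; the filled point has an adjusted p under 0.05. Cks1b at 0.51 is the single filled point, Cdkn2c at −0.49 lies farthest on the other side, and 31 of the 37 intervals cross 0.

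Some facts of the whole series bear on these values. On the probe set of Hmgb1 alone, log2 intensities were 4.91, 4.20, 4.53 and 4.74 on deleted 1 to 4 and 5.35, 5.42, 5.45 and 5.78 on control 1 to 4, so that all deleted arrays lay below all controls. This probe set was dim in both groups, with every value below 5.97, the 95th percentile of mean levels of olfactory and vomeronasal receptor genes. Array medians ran from 6.08 to 6.22, and floxed control 1 stood apart on the first principal component, where it lay at −26.6, the deleted arrays between −11.4 and 11.7, and controls 2 to 4 between 6.33 and 9.89. Among cell type markers, 10 of 10 measured endothelial genes were on the lower side and Clec4g, a lectin of sinusoidal endothelium, was the 1 that passed. Their mean log2 intensity was 8.77 to 8.87 on deleted and 8.99 to 9.12 on control arrays. Of the 10 endothelial genes 6, or 60%, had an unadjusted p under 0.05 (limma), against 9.46% of all genes. Groups did not overlap for 3 of the 10, or 30%, against 5.57% of all genes. Hepatocyte markers were on the lower side for 11 of 12, with means of 12.53 to 12.92 against 12.89 to 12.93. The low end was deleted 4 alone, at 12.53 against 12.84 to 12.92 on deleted 1 to 3. Erythroid markers were on the lower side for 4 of 6, with means of 7.28 to 7.40 against 7.42 to 7.57. Neither of these lists held a gene past the threshold (limma, 2 genes each at an unadjusted p under 0.05, or 16.7% and 33.3%). Groups did not overlap for 0 of 12 hepatocyte and 2 of 6 erythroid markers. Mean levels overlapped between the groups for stellate (8.08 to 8.19 against 8.09 to 8.18), macrophage (7.94 to 8.03 against 7.92 to 8.06) and lymphocyte markers (5.35 to 5.53 against 5.40 to 5.53). Neutrophil markers overlapped too (5.33 to 5.44 against 5.32 to 5.52). None of these passed. An unadjusted p under 0.05 (limma) was found for 3 of 12 stellate, 2 of 11 macrophage, 0 of 11 lymphocyte and 0 of 8 neutrophil markers. Cholangiocyte markers were only just apart, with means of 5.682 to 5.916 on deleted and 5.922 to 5.986 on control arrays. Deleted 4 was lowest at 5.682, against 5.828 to 5.916 on deleted 1 to 3, and 3 of 5 markers were on the lower side. None of the 5 passed (limma, 1 at an unadjusted p under 0.05), and Sox9, named after its values were seen, had −0.35 with groups apart (limma adjusted p = 0.0854). The part of any cell type in the results that follow was not tested.

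Cks1b lies on chromosome 3, at 89415472 to 89418291 of GRCm38.p6. Because it was the gene that passed, its promoter is shown beside that of Cks2, on chromosome 13, the other CKS gene of the set, which did not pass. Both are RefSeq sequences of GRCm38.p6, from 250 bases before to 50 after the transcript start, 5′ to 3′ on the gene's strand. Cks1b is read on the minus strand at chr3:89418242-89418541 and Cks2 on the plus strand at chr13:51644982-51645281. Capitals mark CCAAT boxes (CCAAT or ATTGG, its reverse) and the element called CHR, through which the MuvB complex controls genes of the late cycle (TTTGAA or TTCGAA, in either orientation).
Cks1b: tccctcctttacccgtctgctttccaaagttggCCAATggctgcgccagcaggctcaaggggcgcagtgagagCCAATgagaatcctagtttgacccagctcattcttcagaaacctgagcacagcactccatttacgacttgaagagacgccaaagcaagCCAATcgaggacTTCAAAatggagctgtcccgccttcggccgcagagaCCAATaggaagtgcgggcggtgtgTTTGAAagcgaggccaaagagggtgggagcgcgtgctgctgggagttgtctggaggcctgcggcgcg
Cks2: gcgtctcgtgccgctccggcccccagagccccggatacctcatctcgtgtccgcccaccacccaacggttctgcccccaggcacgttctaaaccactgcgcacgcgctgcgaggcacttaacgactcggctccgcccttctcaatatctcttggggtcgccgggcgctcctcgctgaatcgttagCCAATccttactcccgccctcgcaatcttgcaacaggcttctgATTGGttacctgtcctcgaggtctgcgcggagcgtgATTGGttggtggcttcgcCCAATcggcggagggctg
The Cks1b window held 4 CCAAT boxes and 2 CHR matches, 1 of them in reverse orientation. The window of Cks2 held 4 CCAAT boxes and 0 CHR matches. Over the 32 of the 39 genes with a RefSeq promoter in the table, CHR letters were found in 12 (37.5%), against 21.7% of all 27025 genes in that table. CCAAT was found in 24 (75%), against 41.1%. E2F letters (TTTCCCGC, TTTGGCGC, TTTCGCGC or TTTGCCGC, in either orientation) were found in 8 (25%), against 2.6%, and the windows of Cks1b and Cks2 held 0. A gene with several promoters was counted once in both shares, and these matches describe letters, not bound sites.

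Cks1b had log2 intensities of 8.00, 7.85, 7.79 and 8.20 on deleted 1 to 4 and of 7.40, 7.50, 7.45 and 7.44 on control 1 to 4. The 4 controls lay within 0.10 of each other, and the lowest deleted array lay above the highest control. Means were 7.96 ± 0.18 (SD, n = 4) and 7.45 ± 0.041 (SD, n = 4), and the spread was wider in the deleted group, where deleted 4 was highest. The 95% interval of the fold change was 0.32 to 0.70. Groups did not overlap for 4 of 37 genes, or 10.8%, against 5.57% of all genes, 3.27% as higher and 2.30% as lower. Without Cks1b it was 3 of 36, or 8.33%.

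The fold change of Cks1b stayed between 0.43 and 0.57 under all 18 alternatives, but its call depended on them. It passed in 10, with an adjusted p as low as 0.00564 with array weights, and was lost in 8. Without single arrays the call was lost in 6 of 8 cases, namely without deleted 1 (limma adjusted p = 0.0691), deleted 2 (0.0526), deleted 4 (0.0579), control 2 (0.0637), control 3 (0.0848) or control 4 (0.119). It was also lost with all probe sets tested (0.0717) and with arrays centred on their medians (0.0659).

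**Figure D2:**
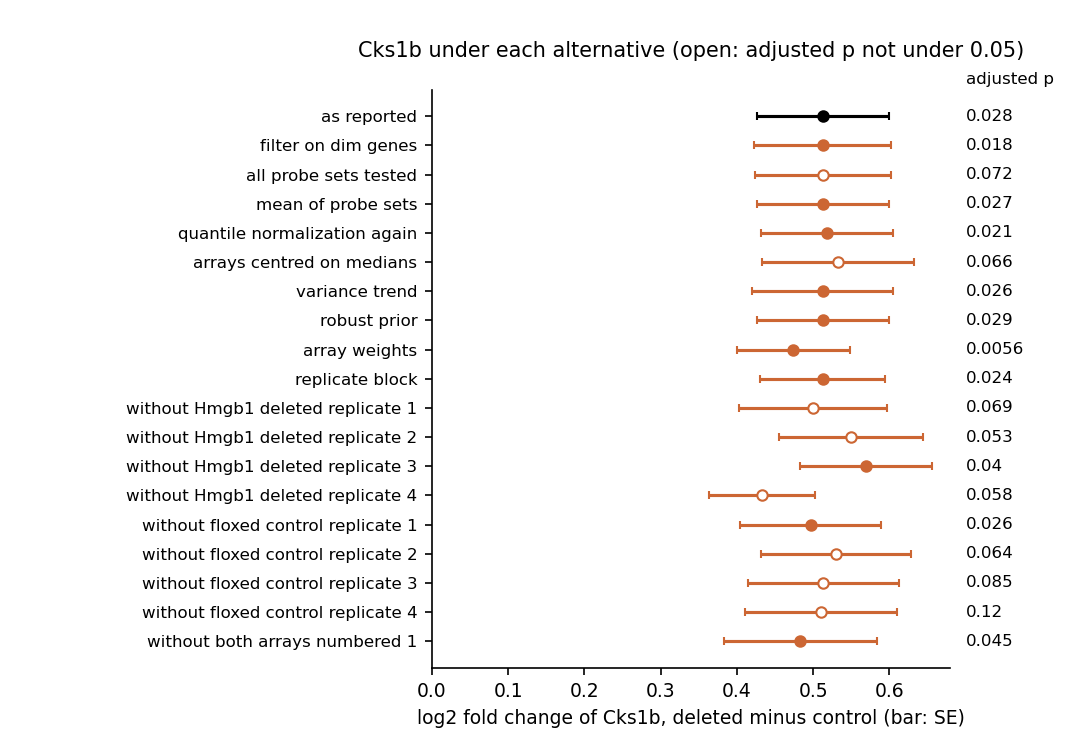
Log2 fold change of Cks1b (horizontal axis, deleted minus control, bars are SE) as reported and under each of 18 alternatives, with the adjusted p at the right; open points did not pass 0.05. All points lie between 0.43 and 0.57, and 8 of the 18 alternatives are open.

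Cks2, whose product also binds CDKs, had log2 intensities of 8.46, 8.51, 8.34 and 8.35 on the deleted arrays and 8.16, 8.59, 8.68 and 8.47 on the controls. The groups overlapped, and the fold change of Cks2 was −0.060 (95% interval −0.29 to 0.17). Its other 2 probe sets had fold changes of −0.083 and −0.11. Within each array, Cks1b minus Cks2 was −0.46, −0.66, −0.55 and −0.15 on deleted and −0.76, −1.09, −1.23 and −1.03 on control arrays. The groups did not overlap, with means of −0.46 ± 0.22 (SD, n = 4) and −1.03 ± 0.20 (SD, n = 4). This follows from the values of Cks1b itself and is given as a description, with no test. Skp2, the F-box protein that works with CKS1B, had −0.048 (−0.23 to 0.13), and Cdkn1b, whose product p27 this ligase marks for destruction, had 0.035 (−0.14 to 0.21). The copy Cks1brt has its own probe set, named here after its values were seen, with log2 intensities of 5.60 to 5.75 on deleted and 5.61 to 5.93 on control arrays and a fold change of −0.17 (adjusted p = 0.576). How far probes of Cks1b bind transcripts of such copies was not tested. Numbers of probe sets on this array largely follow the order of the chromosomes. The Cks2 set used here is numbered between those of Ly6g and Krt7, genes of chromosome 15. Among the listed genes, the Cks2 set with −0.11 is numbered nearest to that of Ccnh, on chromosome 13. The values given for Cks2 may thus belong to a copy elsewhere. Which of the 3 sets reads the gene on chromosome 13 was not tested either.

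**Figure D3:**
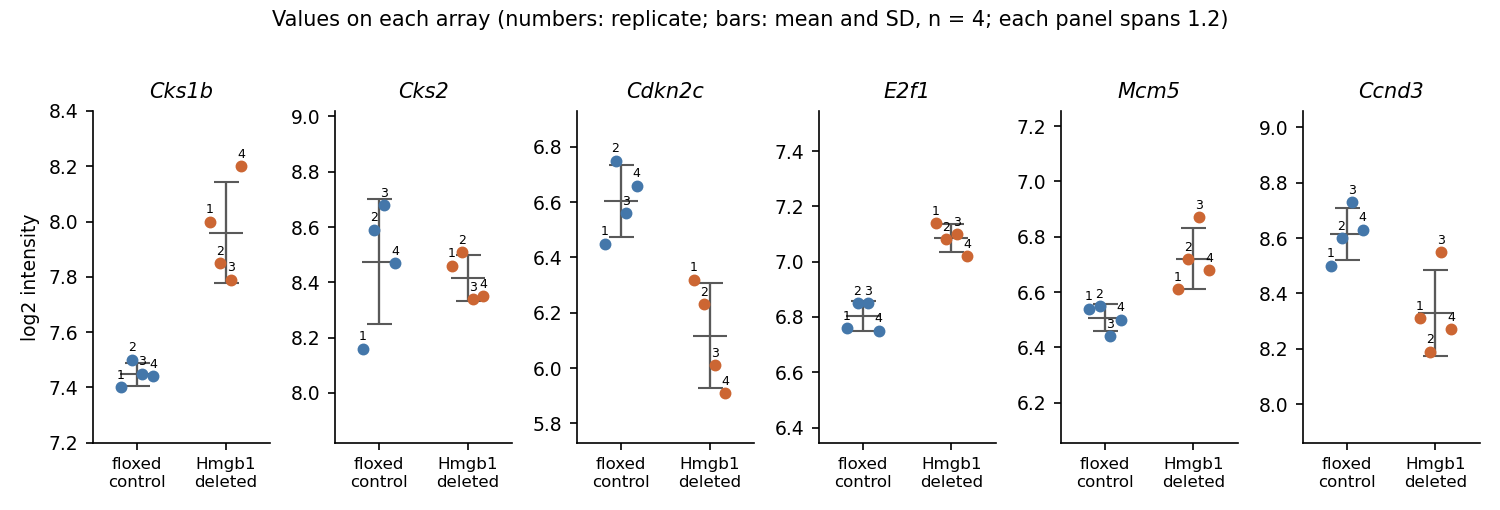
Log2 intensity on each array (points numbered by replicate) for Cks1b, Cks2, Cdkn2c, E2f1, Mcm5 and Ccnd3, control at the left and deleted at the right of each panel, with mean and SD (n = 4); each panel spans the same height. The groups are apart for Cks1b, Cdkn2c, E2f1 and Mcm5 and overlap for Cks2 and Ccnd3.

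Among the CDK inhibitors, Cdkn2c, which encodes p18 and blocks CDK4 and CDK6, had the largest difference on the lower side. Its log2 intensities were 6.32, 6.23, 6.01 and 5.91 on deleted 1 to 4 and 6.45, 6.75, 6.56 and 6.66 on control 1 to 4. All deleted arrays lay below all controls, with means of 6.12 ± 0.19 (SD, n = 4) and 6.61 ± 0.13 (SD, n = 4). The log2 fold change was −0.49 (SE 0.10, 95% interval −0.71 to −0.27) and did not pass over all genes (limma adjusted p = 0.0629). It ran from −0.61 to −0.42 over 17 alternatives and passed in 5, with limma adjusted p of 0.0057 with array weights, 0.0462 with the replicate number as a block, 0.0455 without deleted 1, 0.0252 without control 1 and 0.0114 without both arrays numbered 1.

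The 4 genes of the step from G1 into S phase, E2f1, Ccne1, Ccne2 and Cdk2, all lay on the higher side, and 0 of them passed (limma, 1 at an unadjusted p under 0.05). E2f1, the transcription factor that activates replication genes, had log2 intensities of 7.14, 7.08, 7.10 and 7.02 on deleted and 6.76, 6.85, 6.85 and 6.75 on control arrays. The groups did not overlap and were narrow, with a log2 fold change of 0.28 (SE 0.058, 95% interval 0.15 to 0.41), and E2f1 did not pass (limma adjusted p = 0.0652). It passed in 2 of 18 alternatives, quantile normalization again (0.0289) and array weights (0.0188). The E cyclins that activate CDK2 had 0.095 (Ccne1, 95% interval −0.034 to 0.22) and 0.020 (Ccne2, −0.15 to 0.19), and Cdk2 itself had 0.068 (−0.15 to 0.29). Ccne2 turned to −0.0075 without control 2 or control 4, and Cdk2 to −0.013 without control 1.

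The D cyclins, which sense growth signals, did not share a direction. Ccnd3 had log2 intensities of 8.31, 8.19, 8.55 and 8.27 on deleted and 8.50, 8.60, 8.73 and 8.63 on control arrays. Only deleted 3 reached into the range of the controls, and the log2 fold change was −0.29 (SE 0.085, limma adjusted p = 0.223). It passed in 1 of 18 alternatives, with array weights (0.0412). Ccnd1, which rises in regenerating liver, had 0.19 (95% interval −0.014 to 0.40), with values of 8.64 to 8.84 on deleted and 8.37 to 8.78 on control arrays. Ccnd2 had 0.053 (−0.095 to 0.20) and Cdk4 −0.020 (−0.15 to 0.11).

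The 6 subunits of the MCM helicase, which unwinds DNA at replication forks, all lay on the higher side, and 0 of the 6 passed (limma, 1 at an unadjusted p under 0.05). Mcm5 had log2 intensities of 6.61, 6.72, 6.87 and 6.68 on deleted and 6.54, 6.55, 6.44 and 6.50 on control arrays. The groups did not overlap, and the log2 fold change was 0.21 (SE 0.068, 95% interval 0.062 to 0.36, limma adjusted p = 0.268). Mcm2 had 0.12, Mcm6 0.11, Mcm7 0.10, Mcm3 0.070 and Mcm4 0.063, each with overlapping groups. The median of the 6 was 0.11, with 0.12 after a further quantile normalization and 0.13 when arrays were centred on their medians. All 6 were on the higher side under both scalings, and Mcm4 turned to −0.0025 without control 1. The mean over the 6 genes was 6.39, 6.50, 6.50 and 6.50 on deleted 1 to 4 and 6.38, 6.40, 6.31 and 6.35 on control 1 to 4, so that deleted 1 lay within the range of the controls. Of the loading factors, Cdc6 had 0.095 (−0.16 to 0.35) and Cdt1 −0.073 (−0.27 to 0.12), the 1 of the 8 licensing genes on the lower side.

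Of the 4 genes of DNA synthesis 0 passed (limma, 0 at an unadjusted p under 0.05). Pcna, the sliding clamp of the polymerases, had log2 intensities of 8.71 to 8.98 on deleted and 8.72 to 8.93 on control arrays, with a fold change of 0.010 (95% interval −0.16 to 0.18). The subunits of ribonucleotide reductase, which makes deoxynucleotides, had −0.030 (Rrm1, −0.27 to 0.21) and −0.048 (Rrm2, −0.35 to 0.25). Rrm2 was the most scattered, from 5.84 on deleted 2 to 6.50 on deleted 3. Tyms, thymidylate synthase, had 0.15 (−0.034 to 0.33), with control 1 lowest at 7.31 against 7.56 to 7.64 on the other controls.

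Of the 12 genes of G2 and mitosis 0 passed (limma, 1 at an unadjusted p under 0.05), with 3 on the higher and 9 on the lower side. The proliferation marker Mki67 had log2 intensities of 6.02, 6.32, 6.34 and 6.05 on deleted and 6.13, 6.25, 6.18 and 6.20 on control arrays. The controls lay inside the range of the deleted arrays, and the fold change was −0.0075 (95% interval −0.19 to 0.18), which turned to 0.013 after a further quantile normalization and to 0.013 when arrays were centred on their medians. Top2a, the topoisomerase that untangles chromosomes, had −0.075 (−0.28 to 0.13) and Cdk1, the mitotic kinase, −0.043 (−0.24 to 0.15). Cyclin genes had 0.035 (Ccna2, −0.10 to 0.17) and −0.18 (Ccnb2, −0.37 to 0.014).

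Fold changes of the mitotic kinases and regulators lay between −0.15 and 0.14. Aurka, which builds the spindle poles, had 0.14 (95% interval −0.059 to 0.34), Aurkb, of the chromosomal passenger complex, −0.075 (−0.23 to 0.085), and Birc5, survivin of the same complex, 0.023 (−0.16 to 0.21). Plk1, a kinase of mitotic entry, had −0.060 (−0.28 to 0.16), and Foxm1, a transcription factor of mitotic genes, −0.0075 (−0.22 to 0.20), which turned to 0.011 after quantile normalization again. Cdc20, an activator of the anaphase-promoting complex, had −0.033 (−0.22 to 0.16). Bub1, a kinase of the spindle checkpoint, had −0.15 (−0.30 to −0.0068, limma adjusted p = 0.492), with values of 4.67 to 4.78 on deleted and 4.78 to 5.02 on control arrays that touched at 4.78.

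Floxed control 1 had the highest value of the controls, ties included, for 9 of these 12 late genes, and deleted 1 had that of the deleted arrays for 8 of 12. The mean over the 12 was 6.03 on control 1 against 5.81 to 5.86 on the other controls and 5.79 to 5.92 on the deleted arrays, where deleted 1 was highest. Their median fold change was −0.038 with all arrays and 0.014 without control 1, where 7 were on the higher and 5 on the lower side. It was −0.085 without deleted 1 (3 higher, 9 lower). Without deleted 2 or without deleted 4 the split was 6 and 6. The high place of these 2 arrays was not particular to late genes. Neutrophil markers had a mean of 5.52 on control 1 (5.32 to 5.36 on the other controls), with deleted 1 highest of its group at 5.44. Lymphocyte markers were also highest on control 1 and deleted 1 within each group. The same held for the array medians, at 6.22 and 6.18. The 121 further cell cycle genes went the other way, with their lowest mean on control 1, 6.49.

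**Figure D4:**
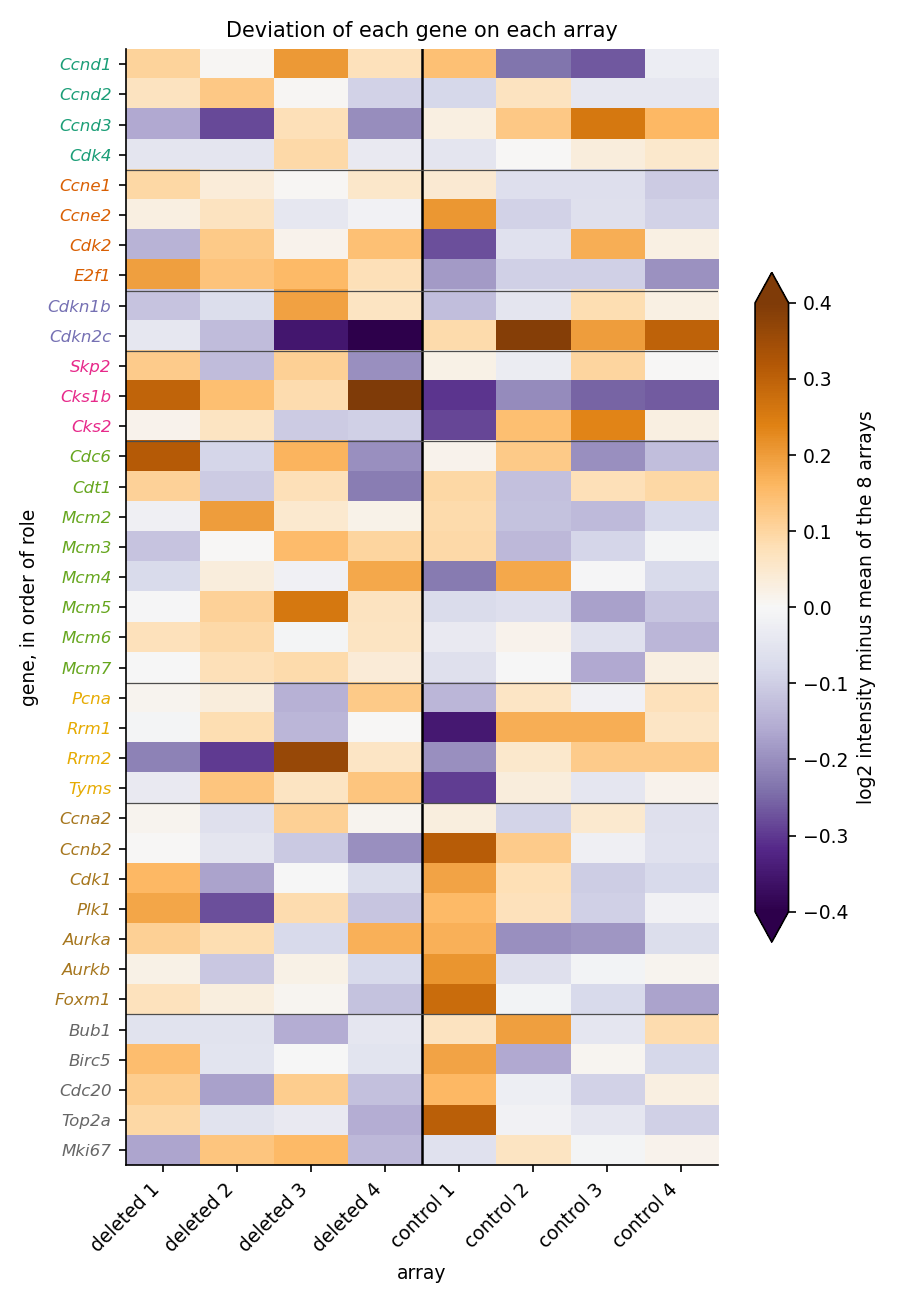
Log2 intensity minus the gene's mean over the 8 arrays (colour) for each of the 37 genes (rows, in order of role) on each array (columns, deleted left of the line). The orange on control 1 and, more faintly, on deleted 1 for many late genes and the opposed colours of the groups for Cks1b and Cdkn2c are the clearest features.

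Many of these probe sets were dim. Olfactory and vomeronasal receptor genes, which liver is not known to use, served as a guide: the mean log2 intensity of 1194 of them had a median of 4.67 and a 95th percentile of 5.97. Of the 37 genes 26 had a mean above that percentile and 11 did not, namely Ccne2, Cdc6, Mcm3, Mcm4, Ccna2, Plk1, Foxm1, Bub1, Birc5, Cdc20 and Top2a. All 4 genes whose groups did not overlap were among the 26. Probe sets differ in how brightly they read a transcript, so this sorts them only roughly, and a fold change on a dim probe set can be smaller than that of the transcript.

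**Figure D5:**
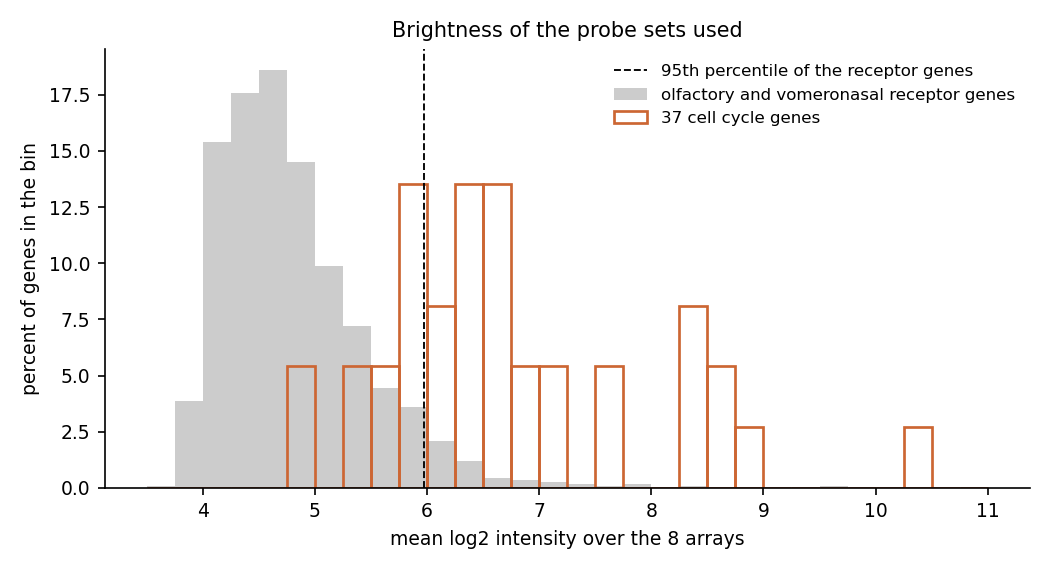
Share of genes (vertical axis, percent of each set) by mean log2 intensity over the 8 arrays (horizontal axis, bins of 0.25) for 1194 olfactory and vomeronasal receptor genes (grey) and the 37 cell cycle genes (outline), with the 95th percentile of the receptor genes, 5.97, as a dashed line. Of the 37 genes 26 lie to the right of the line.

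The rest of the pathway was read from a list of 122 further cell cycle genes, of which 121 were measured. Of these 0 passed over all genes (limma, 9 at an unadjusted p under 0.05, or 7.44%, against 9.46% of all genes), and 0 passed under each of the 18 alternatives. Their median log2 fold change was 0.0025, with 63 on the higher and 57 on the lower side. The smallest p belonged to Wee1, a kinase that holds CDK1 inactive, with values of 6.53 to 6.65 on deleted and 6.03 to 6.43 on control arrays and a fold change of 0.29 (SE 0.088, limma adjusted p = 0.226). Smc2, a condensin subunit, had 0.22 (0.268), Tfdp2, a partner of E2F proteins, −0.19 (0.351), and E2f3 0.21 (0.352).

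By the same measure 6 of the 37 genes, or 16.2%, had an unadjusted p under 0.05, and without Cks1b 5 of 36, or 13.9%. On the higher side the 6 were Cks1b, E2f1 and Mcm5, where 4.93% of all genes had one. On the lower side they were Cdkn2c, Ccnd3 and Bub1, where 4.53% had one. By role, the other genes gave 0 calls among 18 of the E2F, RB and DREAM group, 10 further cyclins, CDKs and inhibitors, 9 checkpoint genes, 32 of origins and the replisome, 32 of spindle and kinetochore and 20 of ubiquitin ligases. Of 19 measured p53 target genes, which the list holds because Cdkn1a is such a target, 0 passed (limma, 0 at an unadjusted p under 0.05), also under each of the 18 alternatives. Their median was −0.010. Those with the smallest p were Sesn2 (0.15), Plk3 (0.34), Phlda3 (−0.15) and Plk2 (−0.12), all with a limma adjusted p of 0.760 or more.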

How the data were processed

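Liver RNA was read on 8 Affymetrix Mouse Gene 1.0 ST arrays. The authors ran RMA (background correction, normalization between arrays, summary to probe sets), per the submitters' processing notes, and deposited log2 intensities of 35556 probe sets. The version of RMA and the build were not given in the sources used here. GEO's annotation of the array gave 1 symbol to 21789 probe sets, several to 1621 and none to 12146. For each of 19939 genes the groups were compared by the moderated 2-sided test of limma 3.58.1 under R 4.3.3, without covariates, with Benjamini-Hochberg adjustment over all of them and a threshold of 0.05. A log2 fold change is deleted minus control. No filter on dim genes was applied. Genes were placed on GRCm38.p6 with RefSeq's gene table. Whether the replicate numbers of the titles pair the arrays is not settled, and the main fit did not use them as pairs. Correlations of same-numbered arrays' deviations from their group means were 0.447, 0.0652, −0.0814 and 0.422. Those of differently numbered arrays ran from −0.485 to 0.327. Values per array are given for Cks1b, genes past the threshold or with groups that do not overlap, and the 3 largest fold changes. Those of Cks2 and Mki67 were added after the values were seen. Of the other lists the 4 genes with the smallest p are named. The members and lists were chosen with earlier results of these data known. The scripts were tested on simulated data. Arrays give no depth, and their number limits the precision.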

Additional observations from a re-analysis of the deposited data

Results flagged for a closer look

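In 74 groups of 4 values, 4 values lay far from the other 3 of their group, by the gap to the nearest neighbour over the group's range. Chance gives about 1 in 20, or 3.7. Cdk4 was at 10.36 on deleted 3 against 10.22 to 10.23, and Bub1 at 4.67 on deleted 3 against 4.77 to 4.78. Ccne2 was at 5.05 on control 1 against 4.75 to 4.78, and Cdt1 at 6.39 on control 2 against 6.59 to 6.61. Their cause was not tested.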

How the results depend on the processing

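Of 645 member values under 18 alternatives, 588 kept their sign and their side of the threshold. All genes called, 138 in the report, numbered 57 with all probe sets tested, 264 with quantile normalization again (153 higher, 111 lower), 61 with arrays centred on their medians (33 and 28), 526 with array weights (212 and 314), 325 with the replicate number as a block and 366 without both arrays numbered 1 (chosen after seeing the data). Without single arrays they ran from 37 (without deleted 4) to 321 (without control 1), with 67 without deleted 2, 53 without deleted 3, 82 without control 2, 71 without control 3 and 42 without control 4. Members called numbered 0 with all probe sets and with centred arrays. They numbered 2 with quantile normalization again (Cks1b, E2f1) and 4 with array weights (these with Cdkn2c and Ccnd3). They numbered 2 with the replicate block, whose pairing is not settled, and 2 without both arrays numbered 1 (Cks1b and Cdkn2c each time). Without single arrays they ran from 0 to 2. Their median fold change was 0.084 with the filter on dim genes, which kept 16 of 37, and ran from −0.0008 without control 4 to 0.028 without deleted 4.

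Cks1b had 0.51 with all probe sets and 0.53 with centred arrays, without a call, and ran from 0.43 to 0.57 without single arrays. There were 41 changes of sign, in 17 members with fold changes of at most 0.075 in size. With quantile normalization again Cdk4 had 0.0009, Foxm1 0.011 and Mki67 0.013. With centred arrays Foxm1 had 0.013 and Mki67 0.013. With array weights Pcna had −0.034, Foxm1 0.085 and Mki67 0.016. Without both arrays numbered 1 Pcna had −0.037, Foxm1 0.060 and Mki67 0.027. Without single arrays, Ccne2 ran from −0.0075 to 0.0925, Cdk2 from −0.0133 to 0.1367, Cdkn1b from −0.0233 to 0.0800, Skp2 from −0.0958 to 0.0108, Cks2 from −0.1650 to 0.0083, Mcm4 from −0.0025 to 0.1342, Pcna from −0.0342 to 0.0608, Rrm1 from −0.1508 to 0.0225, Rrm2 from −0.1758 to 0.0442, Cdk1 from −0.1025 to 0.0133, Plk1 from −0.1317 to 0.0217, Foxm1 from −0.0658 to 0.0842, Birc5 from −0.0275 to 0.0892, Cdc20 from −0.0767 to 0.0200, Top2a from −0.1192 to 0.0142, Mki67 from −0.0600 to 0.0467. The causes were not tested. The number of arrays, and dim probe sets for 11 of 37 genes, limit what could be seen.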

Other observations

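The probe set that carries both Cdkn1a, the gene of the CDK inhibitor p21, and 4930567H12Rik was left out of the comparison because its signal cannot be given to either gene. Its log2 intensities were 9.98, 9.48, 9.84 and 9.76 on deleted 1 to 4 and 10.59, 9.61, 8.94 and 9.99 on control 1 to 4. The controls spread over a wider range than the deleted arrays and enclosed them. In the fit over all probe sets the log2 fold change was −0.018 (95% interval −0.69 to 0.66). That interval is wider than the one of any of the 37 genes in the report.

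Of the 37 genes 4 had more than 1 probe set of their own. The second set of Pcna had 0.020 against 0.010, that of Cdkn1b 0.013 against 0.035, and that of Top2a 0.050 against −0.075, so that the sets of Top2a differ in sign. The second sets of Cdkn1b (means of 4.61 and 4.60) and of Top2a (3.84 and 3.79) were dim, so their values say little for or against the first sets. The first set of Top2a was dim too, with means of 5.24 and 5.31, below the 5.97 of the receptor genes, so neither sign is firm.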
